A study of Homo sapiens with 9 samples.

Results

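Mucin genes encode large glycoproteins that coat and protect epithelial surfaces. The genes described are MUC1, MUC5AC, MUC5B, MUC13 and MUC16, taken as a list of names. They were measured by the 12 probe sets that the array's annotation assigns to exactly 1 of them, so they are 5 of the 19775 genes with such a probe set. The arrays come from A549 cells, a human lung adenocarcinoma line, cultured in serum-containing medium with no treatment beforehand. RNA interference oligos against MED23 (si-Med23) were used in 3 samples, oligos against ELK1 (si-Elk1) in 3, and a control oligo (si-Ctrl) in 3. The 3 samples of each knockdown carry different oligos, A, B and C, in what the design text calls different cell lines, so the spread within a knockdown includes differences between oligos. The si-Ctrl samples are labelled as 3 replicates. The labels do not say whether these were separate cultures, so the p-values measure the spread between samples, and that spread may be technical.

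MUC5AC and MUC5B are gel-forming mucins, secreted by airway goblet and submucosal gland cells and linked end to end into the polymers that give mucus its elasticity. MUC1, MUC13 and MUC16 are anchored in the cell membrane, where their glycosylated ectodomains form a barrier and can be shed. The cytoplasmic tail of MUC1 takes part in signalling, and the shed ectodomain of MUC16 is the tumour marker CA125. MED23 is a subunit of Mediator, the complex that connects transcription factors with RNA polymerase II, and ELK1 is a transcription factor of the ETS family, a substrate of ERK, which can bind MED23. Mucin transcription is known to respond to EGF receptor and ERK signalling in airway cells.

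In si-Med23 cells MUC1 rose 4.55-fold over si-Ctrl and MUC5AC fell to 32.1% of it, while MUC5B and MUC13 did not pass the test. Of all genes tested in that comparison 39.8% passed, 20.3% higher and 19.5% lower. In si-Elk1 cells none of the 4 tested mucin genes passed against si-Ctrl, where 4.26% of all genes passed (3.07% higher and 1.19% lower). Every si-Elk1 array lay above every si-Ctrl array for MUC5AC and MUC5B, as for 21.1% of genes (15.1% lay below, 36.3% in all). Between the knockdowns MUC1 was higher, and MUC5AC and MUC5B lower, in si-Med23 than in si-Elk1, where 21.7% of genes passed (9.54% higher and 12.2% lower). MUC5B was bright enough to be tested only through si-Elk1. MUC16 was too dim to be tested. Several of these genes have further probe sets that did not follow the brightest one, as given below for each gene.

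The values are probe set signals on a linear scale, analysed as log2(signal + 1), and a difference on this scale is a log2 fold change. Each gene was represented by its brightest probe set, and genes with a mean below the median of all probe sets, log2 6.05, were left out, which left 12616 genes. Groups were compared with limma in 1 fit of the 9 arrays, with Benjamini-Hochberg adjustment over all 12616 genes and a threshold of 0.05. Array medians ran from 64.7 to 68.8 signal units in si-Med23, from 84.0 to 88.0 in si-Elk1 and from 76.9 to 79.9 in si-Ctrl. The precision is limited by having 3 arrays per group. The targeted genes changed as labelled, with MED23 at 18.2% of si-Ctrl in si-Med23 (adjusted p = 0.00184, limma) and ELK1 at 23.8% of si-Ctrl in si-Elk1 (adjusted p = 0.00684, limma). In a fit of all probe sets with no filter, the MED23 probe set passed (adjusted p = 0.0230, limma). The ELK1 probe set, 203617_x_at, did not (adjusted p = 0.0728, limma). Another ELK1 probe set, 210376_x_at, had a smaller log2 fold change in si-Elk1, -1.08 ± 0.29 (adjusted p = 0.259, limma over all probe sets). The depth of the ELK1 knockdown is thus uncertain. All 8 epithelial and A549 markers examined, among them KRT18 and ALDH1A1, lay above the filter level. So did 4 of 6 alveolar type II markers, 2 of 4 ciliated cell markers, 2 of 3 blood cell markers, 2 of 4 endothelial markers and 1 of 4 fibroblast markers. Those above it included SFTPC (mean log2 7.71), PECAM1 (7.54), HBB (7.23) and THY1 (7.51), and those below it SFTPD (3.27), FOXJ1 (4.31), PTPRC (4.09), CDH5 (3.26) and PDGFRA (4.58). Their part in the mucin results was not tested. The array of si-Elk1 oligo C stood apart from its group, with a correlation of log2 signals of 0.959 to each of oligos A and B, which correlated at 0.979 with each other, and of 0.953 to 0.960 to the si-Med23 arrays. The 24 poly-A spike probe sets, which read transcripts added before labelling, averaged log2 9.22 ± 0.12 in si-Med23, 8.25 ± 0.29 in si-Elk1 and 7.61 ± 0.20 in si-Ctrl (SD, n = 3 arrays each). Had the arrays been scaled on these spikes, log2 fold changes would be shifted by -1.61 for si-Med23 against si-Ctrl, by -0.64 for si-Elk1 against si-Ctrl and by -0.97 for si-Med23 against si-Elk1. Directions are therefore relative to the deposited scaling.

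The sequences just upstream of MUC1 and MUC13 are shown because MUC1 passed the test in si-Med23 and MUC13, another membrane mucin, did not. Each line gives 250 bases ending at the base before the annotated start, on the gene's strand, from RefSeq on build GRCh38.p14. The table holds 3 of the 5 genes, with more than 1 entry for MUC1, of which the one shown is used. Capitals mark matches on either strand to 4 motifs, the GC box GGGCGG bound by SP1-type factors, the TATA box TATAAA, the ETS element CCGGAAG of the kind ELK1 binds, and the cyclic AMP response element TGACGTCA.
MUC1 (chr1:155192916-155193165, minus strand): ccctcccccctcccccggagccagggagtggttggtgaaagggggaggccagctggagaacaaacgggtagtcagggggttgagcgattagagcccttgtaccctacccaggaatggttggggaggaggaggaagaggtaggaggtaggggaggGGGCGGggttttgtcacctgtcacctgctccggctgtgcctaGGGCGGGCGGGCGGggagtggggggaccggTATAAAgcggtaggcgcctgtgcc
MUC13 (chr3:124934752-124935001, minus strand): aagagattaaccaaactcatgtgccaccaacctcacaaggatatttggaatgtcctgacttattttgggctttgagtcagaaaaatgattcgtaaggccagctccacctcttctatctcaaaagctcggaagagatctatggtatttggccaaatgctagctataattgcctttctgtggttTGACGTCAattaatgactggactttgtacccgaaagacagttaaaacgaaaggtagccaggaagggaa
The MUC1 window was 66.0% G and C and held 4 GC boxes, of which the 3 nearest the start overlap each other, and a TATA box 24 bases before the start. The MUC13 window was 41.6% G and C and held 1 cyclic AMP response element, 68 bases before the start, with none of the other motifs. Of the 35116 windows of this length in the table, 42.6% held the GC box, 10.7% the TATA box, 8.52% the ETS element and 1.65% the cyclic AMP response element. The ETS letters were not in either window, which says nothing about binding by ELK1 here or elsewhere.

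MUC1, the membrane mucin of most simple epithelia, was read by 3 probe sets that gave different estimates. The brightest, 213693_s_at, gave log2 signals of 9.05, 8.76 and 9.96 with si-Med23 oligos A, B and C, of 6.99, 8.20 and 8.05 with si-Elk1 oligos A, B and C, and of 7.39, 7.43 and 6.40 in si-Ctrl. Every si-Med23 array lay above every array of the other groups, while si-Elk1 and si-Ctrl overlapped. Such a separation above si-Ctrl was seen for 31.7% of genes, below it for 25.6% and in either direction for 57.3%. The log2 fold change in si-Med23 against si-Ctrl was 2.18 ± 0.44 (SE, n = 3 arrays per group; limma adjusted p = 0.00648). With poly-A spike scaling it was 0.57 and did not pass (adjusted p = 0.255).
In si-Elk1 against si-Ctrl the log2 fold change was 0.68 ± 0.44 and did not pass (limma adjusted p = 0.353). The order of the mean levels was si-Med23 (9.26 ± 0.63, SD, n = 3), si-Elk1 (7.75 ± 0.66) and si-Ctrl (7.07 ± 0.59), and si-Elk1 and si-Ctrl did not differ beyond their spread.

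The other MUC1 probe sets gave smaller estimates of that rise, and neither passed. Probe set 207847_s_at, also above the filter level on every array, read 7.63, 7.69 and 7.95 in si-Med23, 7.49, 6.42 and 8.04 in si-Elk1, and 7.45, 7.92 and 6.94 in si-Ctrl. The groups overlapped, and its log2 fold change in si-Med23 was 0.32 ± 0.43 (adjusted p = 0.689, limma over all probe sets). Probe set 211695_x_at was dim in si-Ctrl, with 5.74, 3.89 and 5.21, against 6.08, 6.22 and 7.05 in si-Med23. Its si-Med23 arrays lay above its si-Ctrl arrays, and its log2 fold change of 1.50 ± 0.52 did not pass (adjusted p = 0.116, limma over all probe sets). With the mean of the 3 probe sets taken for the gene, the log2 fold change of MUC1 in si-Med23 was 1.34 (adjusted p = 0.00955). The suffix _s_at marks probes that several transcripts can share, not always of 1 gene, and _x_at marks probes that may also match other sequences. No more than that is known here of what each probe set detects.

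**Figure D1:**
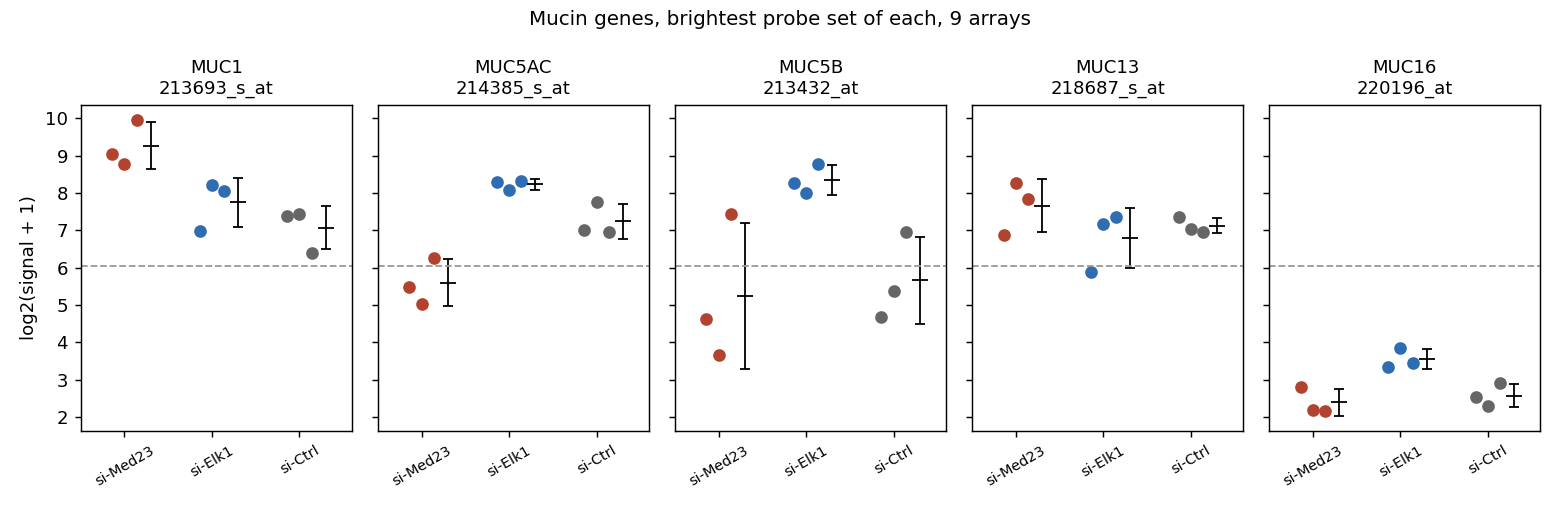
Log2(signal + 1) of the brightest probe set of each mucin gene on each array, with the mean and SD of the 3 arrays beside the points (si-Med23 red, si-Elk1 blue, si-Ctrl grey; oligos A, B, C or replicates 1 to 3 from left to right). The dashed line is the filter level of 6.05; MUC1 stands highest in si-Med23, MUC5AC lowest in si-Med23, MUC5B highest in si-Elk1, and MUC16 lies below the line on every array.

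MUC5AC is the inducible gel-forming mucin of airway goblet cells. Its brightest probe set, 214385_s_at, read 5.50, 5.02 and 6.27 with si-Med23 oligos A, B and C, 8.30, 8.07 and 8.31 with si-Elk1 oligos A, B and C, and 6.99, 7.77 and 6.94 in si-Ctrl. The groups did not overlap at all: each si-Med23 array was below each si-Ctrl array, and each si-Elk1 array was above. Taken singly, the first separation was seen for 25.6% of genes and the second for 21.1%, and the share with both was not computed. The log2 fold change was -1.64 ± 0.33 in si-Med23 against si-Ctrl (SE, n = 3 arrays per group; limma adjusted p = 0.00641). Oligos A and B lay below the filter level, so the size is uncertain, and with signals raised to that level it was -1.11 (adjusted p = 0.00419). Its direction was the same under each of the scalings tried.
In si-Elk1 against si-Ctrl the log2 fold change was 0.99 ± 0.33 and did not pass (limma adjusted p = 0.110; unadjusted p = 0.0148). With signals raised to the filter level it passed (adjusted p = 0.0301). The order of the mean levels was si-Elk1 (8.23 ± 0.14, SD, n = 3), si-Ctrl (7.24 ± 0.46) and si-Med23 (5.59 ± 0.63).

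The other 3 MUC5AC probe sets did not carry the si-Med23 call. Probe set 217187_at, at or above the filter level on 8 of 9 arrays, read 6.46, 7.20 and 6.60 in si-Med23, 7.81, 7.24 and 5.55 in si-Elk1, and 6.47, 6.41 and 7.10 in si-Ctrl. The groups overlapped throughout, and the log2 fold change in si-Med23 was 0.09 ± 0.56 (adjusted p = 0.940, limma over all probe sets). Probe set 217182_at read 5.85, 3.77 and 5.55 in si-Med23 and 6.41, 5.89 and 6.77 in si-Ctrl, a log2 fold change of -1.31 ± 0.86 that did not pass (adjusted p = 0.378). Its si-Med23 arrays lay below its si-Ctrl arrays. In si-Elk1 217182_at read 5.38, 3.79 and 7.01, overlapping si-Ctrl. Its log2 fold change there was -0.97 ± 0.86 and did not pass (adjusted p = 0.690, limma over all probe sets). That sign was opposite to the one of the brightest MUC5AC probe set in si-Elk1. The log2 fold change of 217187_at in si-Elk1 was 0.21 ± 0.56 (adjusted p = 0.915). The dimmest, 214303_x_at, was above the filter level on 1 array and had log2 fold changes of 0.12 ± 0.58 in si-Med23 and 1.75 ± 0.58 in si-Elk1 (adjusted p = 0.918 and 0.335). When probe sets ending in _x_at or _s_at were left out, 217187_at stood for MUC5AC and the log2 fold change in si-Med23 was 0.09 (adjusted p = 0.903, limma).

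**Figure D2:**
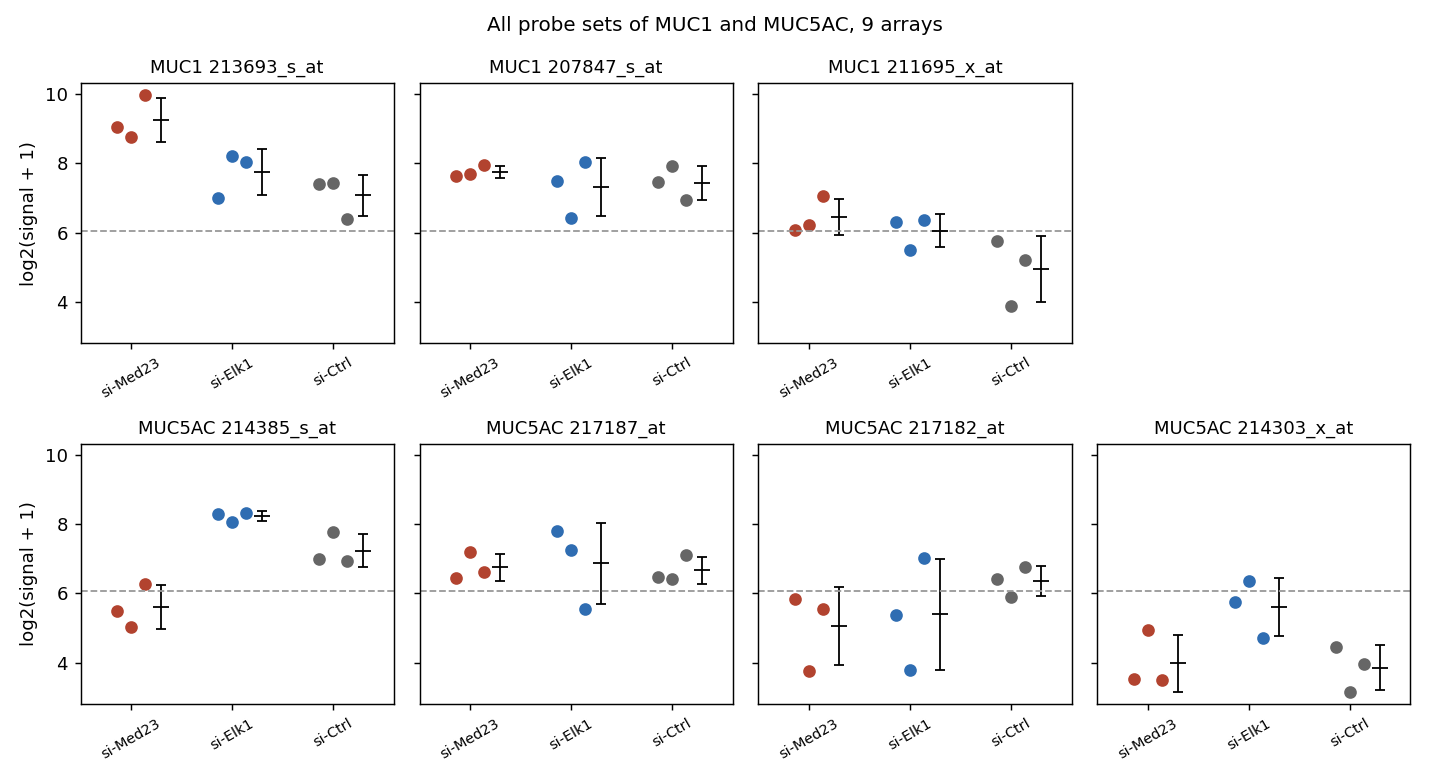
Log2(signal + 1) of each probe set of MUC1 (top, 3 probe sets) and MUC5AC (bottom, 4 probe sets) on the 9 arrays, with mean and SD per group and the filter level as a dashed line. The separation of si-Med23 from si-Ctrl is seen in 213693_s_at and 214385_s_at, and 207847_s_at and 217187_at show overlapping groups.

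MUC5B is the gel-forming mucin of submucosal glands and of the resting small airway. Probe set 213432_at read 4.63, 3.67 and 7.44 with si-Med23 oligos A, B and C, 8.27, 7.998 and 8.77 with si-Elk1 oligos A, B and C, and 4.67, 5.37 and 6.94 in si-Ctrl. All si-Elk1 arrays lay above all others, and within si-Med23 oligo C stood well above oligos A and B. The si-Elk1 arrays lay above si-Ctrl for 21.1% of genes and above si-Med23 for 19.5%. Against si-Ctrl the log2 fold change in si-Elk1 was 2.69 ± 0.91, a fitted 6.43-fold, and did not pass (SE, n = 3 arrays per group; limma adjusted p = 0.118, unadjusted p = 0.0172). It passed with signals raised to the filter level, where the log2 fold change was 2.00 (adjusted p = 0.0225), and when si-Med23 oligo C was left out of the fit that shares the spread (2.69, adjusted p = 0.0462).
In si-Med23 against si-Ctrl the log2 fold change was -0.42 ± 0.91 (limma adjusted p = 0.736), and its sign turned without si-Ctrl replicate 3 (0.22) or without si-Med23 oligo B (0.37). With poly-A spike scaling it was -2.03 and passed (adjusted p = 0.0382, limma). The means were 5.24 ± 1.96 in si-Med23, 8.35 ± 0.39 in si-Elk1 and 5.66 ± 1.16 in si-Ctrl (SD, n = 3). The order was thus si-Elk1, si-Ctrl and si-Med23, and si-Med23 and si-Ctrl did not differ beyond their spread. The means of si-Med23 and si-Ctrl lay below the filter level, so MUC5B entered the tests only through si-Elk1. The other MUC5B probe set, 222268_x_at, was below the filter level on all 9 arrays, with log2 fold changes of 1.04 ± 0.98 in si-Med23 and 0.31 ± 0.98 in si-Elk1 (adjusted p = 0.554 and 0.928, limma over all probe sets).

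MUC13 is a membrane mucin best known from the intestine. Probe set 218687_s_at read 6.88, 8.26 and 7.83 in si-Med23, 5.89, 7.16 and 7.36 in si-Elk1, and 7.37, 7.05 and 6.97 in si-Ctrl, and the 3 groups overlapped. The log2 fold changes were 0.53 ± 0.44 in si-Med23 and -0.32 ± 0.44 in si-Elk1 against si-Ctrl (limma adjusted p = 0.355 and 0.665). The second probe set, 222712_s_at, gave 0.68 ± 0.54 and -0.16 ± 0.54 (adjusted p = 0.473 and 0.934, limma over all probe sets). MUC13 was the 1 member with no call in any comparison among the 4 tested, though with poly-A spike scaling it was lower in si-Med23 (log2 fold change -1.08, adjusted p = 0.0442). With median centring it was higher in si-Med23 than in si-Elk1 (1.22, adjusted p = 0.0490).

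MUC16, the largest membrane mucin, was read by 1 probe set that lay below the filter level on all 9 arrays. It gave 2.81, 2.20 and 2.17 in si-Med23, 3.34, 3.86 and 3.46 in si-Elk1, and 2.54, 2.29 and 2.91 in si-Ctrl. The si-Elk1 arrays were above the other 6 by a small margin in this dim range. Among tested genes they lay above si-Ctrl for 21.1% and above si-Med23 for 19.5%. Over all probe sets with no filter, the log2 fold change of MUC16 was -0.19 ± 0.27 in si-Med23 and 0.97 ± 0.27 in si-Elk1, and neither passed (adjusted p = 0.714 and 0.269, limma). Whether the transcript is present at all cannot be read from signals this low.

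**Figure D3:**
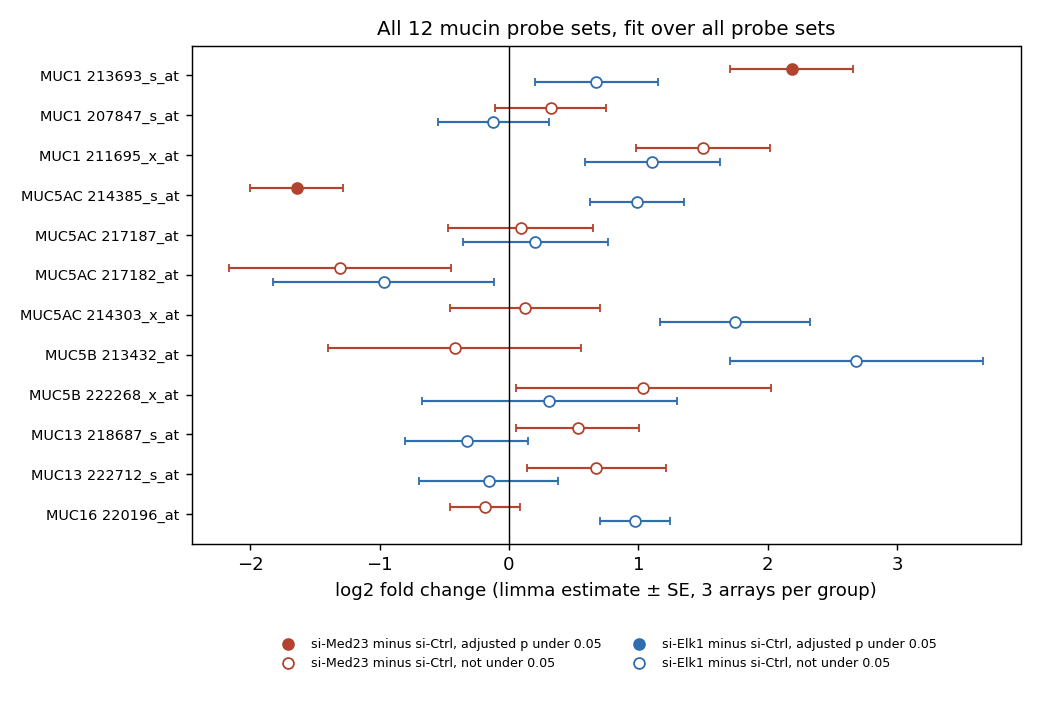
Log2 fold changes of all 12 mucin probe sets in si-Med23 (red) and si-Elk1 (blue) against si-Ctrl, as limma estimates with SE from 3 arrays per group, filled where the adjusted p over all probe sets was under 0.05. In si-Med23, MUC1 213693_s_at (2.18) and MUC5AC 214385_s_at (-1.64) are filled, and in si-Elk1 no probe set is.

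Of the 4 mucin genes tested in si-Med23 against si-Ctrl, 1 rose, 1 fell and 2 did not pass, beside the 39.8% of all genes given above. The median log2 fold change of the 4 was 0.06, beside 0.09 over all genes. Both calls stood when any single array was left out, with log2 fold changes of 1.83 to 2.43 for MUC1 and of -1.98 to -1.35 for MUC5AC. Over all probe sets with no filter, where 7.89% passed, both probe sets passed again (adjusted p = 0.0386 for MUC1 and 0.0399 for MUC5AC, limma).
In si-Elk1 against si-Ctrl, limma called 0 of the 4 beside 4.26% of all genes. Over all probe sets with no filter, 0 of the 12 passed, where 0.0787% did. At an unadjusted p under 0.05 there were 2, MUC5AC and MUC5B, where 25.1% of genes reached that level. The median was 0.83, beside 0.05 over all genes. MUC5B, with 2.69, entered the tests only through si-Elk1. Neither this median nor the count of 2 is therefore independent of the filter. The si-Ctrl arrays are shared by both comparisons, so a pattern common to them is not independent.

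Between the knockdowns, the log2 fold change of MUC5AC in si-Med23 against si-Elk1 was -2.63 ± 0.33 (SE, n = 3 arrays per group; limma adjusted p = 0.00494). MUC5B had -3.10 ± 0.91 (adjusted p = 0.0434, limma) and MUC1 1.51 ± 0.44 (adjusted p = 0.0410, limma). Since si-Med23 oligos A and B lay below the filter level for MUC5AC and MUC5B, these sizes are uncertain, and with signals raised to it they were -2.10 and -1.83 (adjusted p = 0.00124 and 0.0140). MUC5B entered the test only through si-Elk1, so its call is not independent of the filter. With no gene filter, quantile normalization or a fit of the 6 arrays compared, MUC5B did not pass (limma adjusted p = 0.0992, 0.0573 and 0.0668). MUC1 did not pass with probe sets averaged (0.78, adjusted p = 0.0915) or with poly-A spike scaling (0.54, adjusted p = 0.299). It also missed with no gene filter, the 6 arrays compared, hybridization control scaling or a replicate block (limma adjusted p = 0.0957, 0.0637, 0.0656 and 0.0784). MUC5AC did not pass without _x_at and _s_at probe sets (-0.11, adjusted p = 0.891). For all 3, no si-Med23 array fell within the range of the si-Elk1 arrays, as for 38% of genes (18.5% higher and 19.5% lower). MUC13 had 0.86 ± 0.44 and did not pass (adjusted p = 0.179). So 1 gene was higher and 2 were lower of 4, where 21.7% of all genes passed. Over all probe sets with no filter, where 0.419% passed, MUC5AC passed (adjusted p = 0.0384) and MUC1 and MUC5B did not (both 0.135).
Without si-Elk1 oligo C, the array that stood apart, the log2 fold changes between the knockdowns were -2.59 for MUC5AC, -2.89 for MUC5B and 1.66 for MUC1 (limma adjusted p = 0.00392, 0.0785 and 0.0414). Those in si-Elk1 against si-Ctrl were then 0.95 for MUC5AC and 2.47 for MUC5B (adjusted p = 0.228 and 0.263). The MUC5AC difference passed without any single array. The MUC1 difference was lost without si-Med23 oligo A, B or C (adjusted p = 0.0747, 0.0564 and 0.102), without si-Elk1 oligo A or B (0.125 and 0.0690) and without si-Ctrl replicate 1 or 2 (0.0563 and 0.0556). The MUC5B difference was lost without si-Med23 oligo A or B (0.113 and 0.118), without si-Elk1 oligo A, B or C (0.108, 0.0974 and 0.0785) and without si-Ctrl replicate 1 or 2 (0.0523 and 0.0619).

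**Figure D4:**
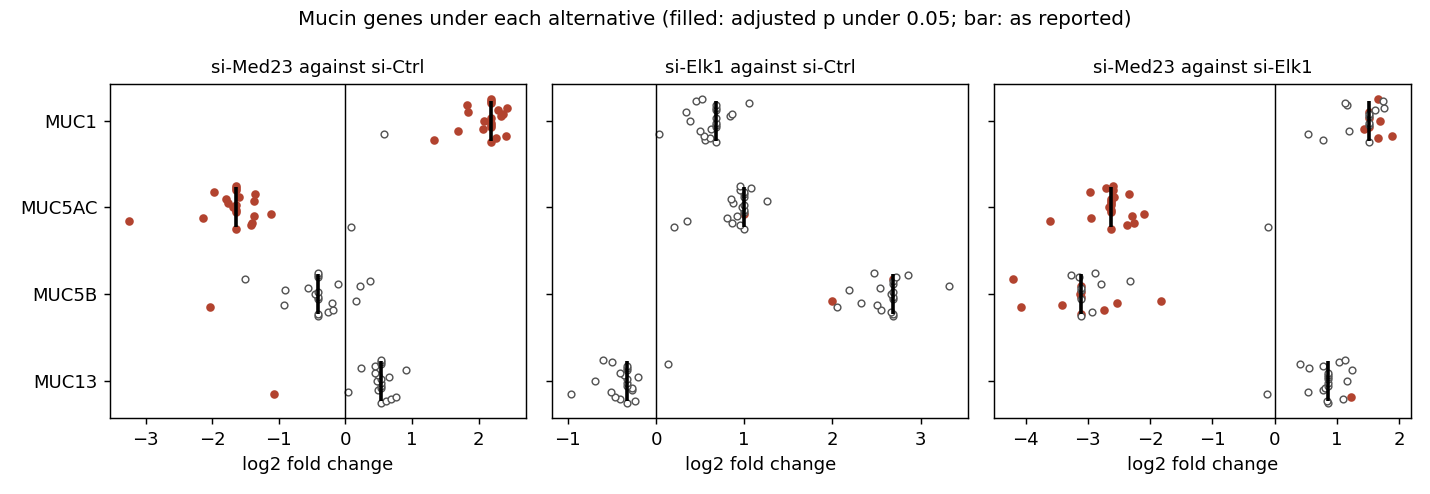
Log2 fold changes of the 4 tested mucin genes in the 3 comparisons under each alternative processing, 1 point per alternative, filled where the adjusted p was under 0.05, with the reported value as a bar. MUC1 stays above 0 and MUC5B below 0 between si-Med23 and si-Elk1 in each alternative drawn, while MUC5AC in si-Med23 against si-Ctrl has 1 value above 0, from another probe set.

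MUC5AC and MUC5B are neighbours on chromosome 11, in a cluster with MUC6 and MUC2 on one side and TOLLIP, an adaptor of Toll-like receptor signalling, on the other (RefSeq order on GRCh38.p14). MUC2, the gel-forming mucin of the colon, and MUC6, that of the stomach, lay below the filter level, with means of log2 5.84 and 5.87. Their log2 fold changes were -0.39 and 0.27 in si-Med23 and 0.18 and -0.93 in si-Elk1 against si-Ctrl. TOLLIP was higher in si-Med23 with a log2 fold change of 0.68 (limma adjusted p = 0.00980), which the poly-A spike scaling would turn negative, and had 0.20 in si-Elk1 (adjusted p = 0.429). The next gene, BRSK2, had 0.25 and 0.42 in the same comparisons and passed in neither (adjusted p = 0.442 and 0.311). The fall of MUC5AC in si-Med23 was thus not seen in TOLLIP or BRSK2. In si-Elk1 MUC2, MUC5AC, MUC5B, TOLLIP and BRSK2 had positive log2 fold changes and MUC6 a negative one, and none of those tested passed.

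Across the 9 arrays the log2 signals of MUC5AC and MUC5B had a Pearson r of 0.76, and those of MUC1 and MUC5AC one of -0.54. These are descriptions over arrays that fall into 3 groups and share their scaling. The genes whose log2 signals most resembled that of MUC1 were NUDT16L1 (r = 0.990), LPCAT1, a lysophosphatidylcholine acyltransferase (0.967), and GMIP (0.965). All 3 had their highest mean in si-Med23, for example 9.40 for NUDT16L1, against 8.86 in si-Elk1 and 8.62 in si-Ctrl. For MUC5AC they were SFRP1, a secreted Wnt antagonist (0.983), the homeobox gene HOXA2 (0.975) and CLHC1 (0.970). CLHC1 averaged 6.14 in si-Med23, 7.46 in si-Elk1 and 6.97 in si-Ctrl, in the order of MUC5AC. For MUC5B they were LHPP (0.967), the coagulation factor gene F8 (0.956) and LINC01431 (0.955), and for MUC13 PPM1M (0.928), TMEM44 (0.927) and INHBB, an inhibin beta subunit (0.920).

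Most other mucins were too dim to test in these cells. Of 18 further mucin and mucin-like genes, 15 had a probe set of their own and 12 of those lay below the filter level, among them MUC4 (mean log2 5.84), MUC17 (5.95) and MUC20 (4.10). Of the 3 tested, CD164, a sialomucin of the endolysosomal and cell membrane, fell in si-Med23 with a log2 fold change of -1.04 ± 0.25 (limma adjusted p = 0.0135). MUC3A and OVGP1 did not pass in si-Med23, and none of the 3 passed in si-Elk1.

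Of 23 tested enzymes in a list drawn up for the O-glycosylation of mucins, 5 rose and 4 fell in si-Med23, and the other 14 missed the threshold. Over all genes 20.3% rose and 19.5% fell. The share of the enzymes that passed is near the one over all genes. Their median log2 fold change was 0.17, beside 0.09 over all genes. Centring each array on its median gave 8 higher and 4 lower, hybridization control scaling gave 2 higher and 6 lower, and poly-A spike scaling gave 0 higher and 20 lower. The sialyltransferase gene ST6GALNAC6 rose by 2.32 ± 0.40 on the log2 scale (limma adjusted p = 0.00409). ST3GAL1, which sialylates the core 1 glycan, rose by 1.04 ± 0.18, and GCNT3, a mucin-type core 2 and core 4 branching enzyme, by 0.63 ± 0.12 (adjusted p = 0.00412 and 0.00591). C1GALT1, the galactosyltransferase that makes core 1, fell by 0.97 ± 0.17 on that scale (adjusted p = 0.00398). In si-Elk1 1 enzyme rose and 22 did not pass, where 4.26% of all genes passed.
That enzyme was ST6GALNAC4, another sialyltransferase, with log2 fold changes of 0.67 ± 0.18 in si-Med23 and 1.04 ± 0.18 in si-Elk1 (limma adjusted p = 0.0196 and 0.0207). In si-Med23 it did not pass with probe sets averaged (0.10, adjusted p = 0.744) or with hybridization control scaling (0.18, adjusted p = 0.419), nor did GCNT3 with that scaling (0.14, adjusted p = 0.409). Leaving out si-Ctrl replicate 1 or 3 ended the ST6GALNAC4 call in si-Med23, with adjusted p-values of 0.0533 and 0.0690. In si-Elk1 the call ended when si-Ctrl replicate 1, 2 or 3 was left out (0.0705, 0.0578 and 0.0868), or si-Elk1 oligo A or C (0.0621 and 0.0601), and with averaged probe sets it was 0.68 (adjusted p = 0.116). With poly-A spike scaling ST6GALNAC6 in si-Med23 was 0.71 and did not pass (adjusted p = 0.113).

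Of 26 genes of airway secretory cells on the array, which accompany mucins in goblet and club cells, only 12 were bright enough to test. In si-Med23 1 of the 12 rose, 1 fell and 10 did not pass, where 39.8% of all genes passed. Median centring gave 3 higher and 1 lower, hybridization control scaling 1 higher and 5 lower, and poly-A spike scaling 0 higher and 9 lower. SLPI, a protease inhibitor of airway secretions, read 9.74, 9.94 and 10.44 in si-Med23, 11.20, 11.18 and 11.62 in si-Elk1, and 9.00, 8.88 and 8.82 in si-Ctrl. Its 3 groups did not overlap, with log2 fold changes of 1.14 ± 0.20 in si-Med23 and 2.44 ± 0.20 in si-Elk1 against si-Ctrl (limma adjusted p = 0.00422 and 0.00166). Separation above si-Ctrl was seen for 31.7% of all genes in si-Med23 and for 21.1% in si-Elk1. SLC12A2, the basolateral chloride cotransporter of secreting epithelia, fell in si-Med23 by 0.71 ± 0.14 on the log2 scale (adjusted p = 0.00634). In si-Elk1 SLPI was the 1 of 12 that passed, beside 4.26% of all genes. In si-Med23 against si-Elk1 5 of the 12 were lower and none higher, where 12.2% of all genes were lower, with a median of -0.78 beside -0.03 over all genes. The number lower was 4 with median centring, 3 with quantile normalization, 7 with hybridization control scaling and 10 with poly-A spike scaling, and none was higher in these. Among the 5 was FCGBP, a mucus protein that binds gel-forming mucins. Its log2 signals were 6.16, 5.63 and 7.54 in si-Med23, 9.00, 8.75 and 9.23 in si-Elk1, and 6.88, 6.92 and 4.03 in si-Ctrl. As for MUC5B, the si-Elk1 arrays stood above all others, and the log2 fold change between the knockdowns was -2.55 ± 0.77 (limma adjusted p = 0.0465). The si-Elk1 arrays lay above si-Ctrl for 21.1% of all genes and above si-Med23 for 19.5%. Between the knockdowns, the 23 enzymes above had 3 higher and 3 lower in si-Med23 than in si-Elk1. The 29 transcription factors and inputs below had 6 higher and 3 lower, and the 17 partners and sheddases 4 higher and 1 lower. Of the 3 other mucin genes tested, 0 passed.

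Among 29 tested transcription factors and signalling inputs of mucin genes, 9 rose, 5 fell and 15 did not pass in si-Med23, where 20.3% of all genes rose and 19.5% fell. Median centring gave 14 higher and 3 lower, hybridization control scaling 2 higher and 12 lower, and poly-A spike scaling 0 higher and 27 lower. EREG, an EGF receptor ligand, fell by 1.99 ± 0.29 on the log2 scale and SMAD4, the shared TGF-beta effector, by 0.73 ± 0.14 (limma adjusted p = 0.00252 and 0.00628). IL6, a cytokine that can raise airway mucin, rose by 2.10 ± 0.36 and the lung transcription factor gene GATA6 by 1.05 ± 0.15 (adjusted p = 0.00398 and 0.00256). SMAD4 had -0.17 without _x_at and _s_at probe sets (adjusted p = 0.698), GATA6 0.28 with probe sets averaged (adjusted p = 0.598) and IL6 0.49 with poly-A spike scaling (adjusted p = 0.188), and none of these passed. In si-Elk1 1 rose and 1 fell of 29, beside 4.26% of all genes. ERBB3, a receptor of the EGF receptor family, read 9.36, 9.15 and 9.21 in si-Elk1 and 7.01, 7.14 and 7.27 in si-Ctrl, a log2 fold change of 2.10 ± 0.12 (adjusted p = 0.000303, limma). KLF4, an epithelial transcription factor, had -0.74 ± 0.17 (adjusted p = 0.0497). That KLF4 call ended when any si-Ctrl array, any si-Elk1 array or si-Med23 oligo A was left out, with adjusted p-values between 0.0685 and 0.138.

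Of 17 tested partners and sheddases of membrane mucins, 4 rose, 3 fell and 10 did not pass in si-Med23, close to the 39.8% of all genes that passed. Median centring gave 9 higher and 1 lower, hybridization control scaling 4 higher and 6 lower, and poly-A spike scaling 0 higher and 15 lower. CTNNB1, beta-catenin, which the MUC1 tail binds, read 12.22, 11.99 and 12.18 in si-Med23, 11.28, 11.14 and 11.27 in si-Elk1, and 11.04, 11.05 and 11.08 in si-Ctrl. It rose in si-Med23 by 1.07 ± 0.11 on the log2 scale (limma adjusted p = 0.00184). The adhesion genes JUP and CDH1 rose in si-Med23 by 1.05 ± 0.12 and 1.19 ± 0.21 (adjusted p = 0.00184 and 0.00464), and ADAM9, a membrane metalloprotease, had -0.89 ± 0.19 (adjusted p = 0.00800). In si-Elk1 2 of 17 rose, beside 3.07% of all genes, JUP by 0.57 ± 0.12 and CDH1 by 1.04 ± 0.21 (adjusted p = 0.0395 and 0.0368, limma). Both si-Elk1 calls were lost when any single si-Ctrl or si-Elk1 array was left out, with adjusted p-values between 0.0663 and 0.127, and that of JUP also without si-Med23 oligo A or B (0.0547 and 0.0507). Under poly-A spike scaling the si-Med23 rises smaller than 1.61 named in these lists turned negative.

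**Figure D5:**
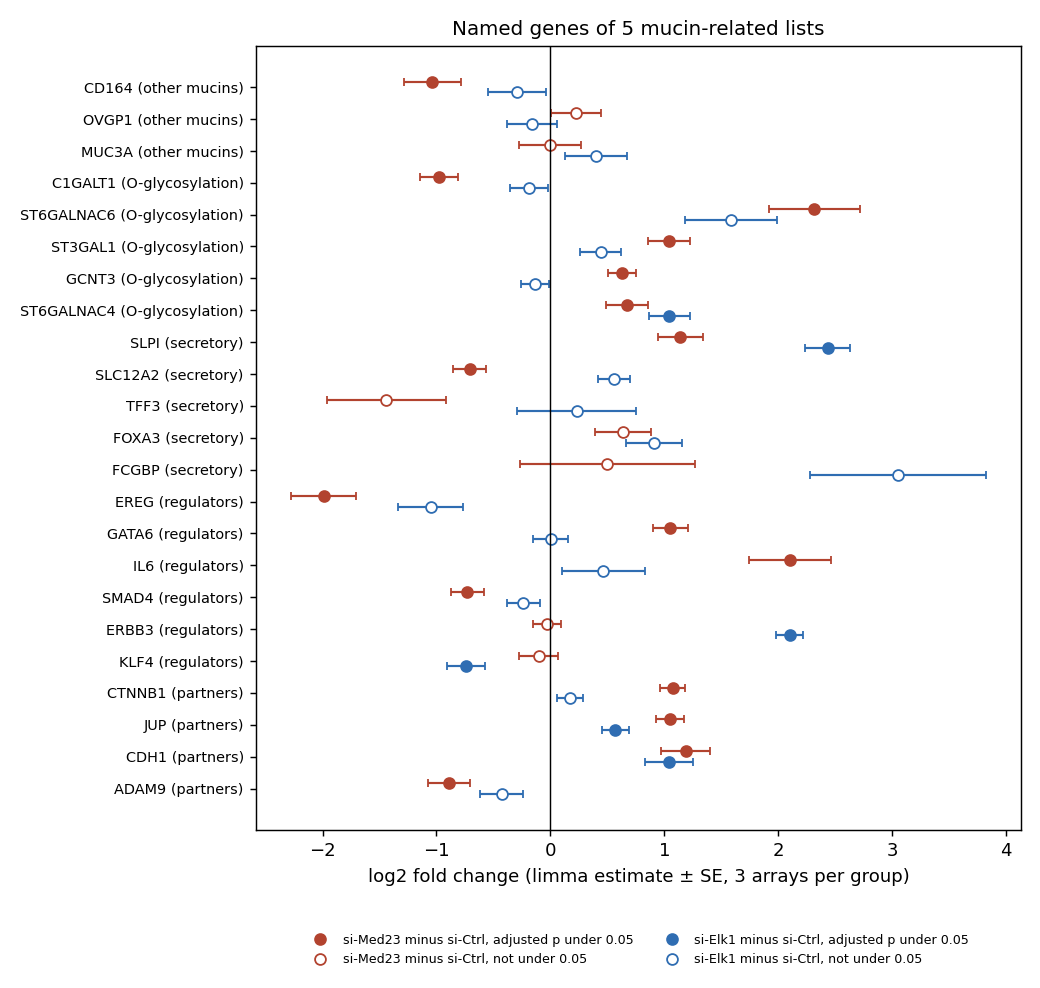
Log2 fold changes with SE (limma, 3 arrays per group) of the named genes of the 5 mucin-related lists in si-Med23 (red) and si-Elk1 (blue) against si-Ctrl, filled where the adjusted p over all genes tested was under 0.05, with values as deposited. CTNNB1, GATA6 and IL6 are filled in si-Med23 alone, and ERBB3 and KLF4 in si-Elk1 alone.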

How the data were processed

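The authors deposited 1 table of probe set signals, intensities on a linear scale, with no detection calls used here. Per the submitters' processing notes the tools were RMA and MAS5, whose roles and versions are unstated, and the spread of array medians shows that the values were not quantile normalized. Gene names came from the platform's annotation table, and the gene IDs of the 5 members had the same symbols in RefSeq.

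Signals were analysed as log2(value + 1), with 1 probe set per gene and the filter given above, by limma 3.58.1 in R 4.3.3 (lmFit, eBayes, 2-sided, no block), and all p-values were adjusted by Benjamini-Hochberg. The fit was tested on simulated data. Each probe set of the members was also tested over the 54613 that are not array controls. The members and gene lists were chosen with earlier results of these data known. Genes named are the members and targets, from each list up to 4 genes with the smallest p in si-Med23 and 2 in si-Elk1, and the 3 genes most like each member. Values are given where they passed. TOLLIP, BRSK2, MUC2 and MUC6 are named as neighbours, and further dim mucins and markers as examples, chosen after their values were seen.

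Alternatives were no filter, averaging a gene's probe sets, a 70th percentile filter, leaving out _x_at and _s_at probe sets, quantile normalization, median centring, poly-A spike and hybridization control scaling, a pseudocount of 16, signals raised to the filter level, a fit of the 6 arrays compared, a replicate block, array weights, a trended robust prior, a threshold of 0.01, and each array left out in turn. No arrays were duplicates (at most 0.273% of values equal).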

Additional observations from a re-analysis of the deposited data

Results flagged for a closer look

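The effects of the knockdowns differed for 19 of the 29 named genes that were tested, where 21.7% of all genes passed. This was by the limma contrast of si-Med23 against si-Elk1, which is the difference of their effects against the shared si-Ctrl arrays. The list genes were named for small p-values against si-Ctrl on these same arrays, and MED23 and ELK1 were the targets. A high count was thus built in and is not a result about these genes. The log2 fold changes of the mucin genes were 1.51 for MUC1, -2.63 for MUC5AC and -3.10 for MUC5B (adjusted p = 0.0410, 0.00494 and 0.0434). MUC5B entered the test only through si-Elk1. The targeted genes had -2.01 for MED23 and 2.61 for ELK1. Among the other named genes, 7 were lower in si-Med23 than in si-Elk1, namely FCGBP (-2.55), ERBB3 (-2.13), SLPI (-1.30), SLC12A2 (-1.27), EREG (-0.94), C1GALT1 (-0.79) and SMAD4 (-0.49). Another 7 were higher, namely IL6 (1.63), GATA6 (1.05), CTNNB1 (0.90), GCNT3 (0.77), KLF4 (0.64), ST3GAL1 (0.60) and JUP (0.48). Of these 14, the differences of ERBB3, SLPI, SLC12A2, GATA6, CTNNB1 and GCNT3 passed without any single array, though GATA6 did not with probe sets averaged (0.11, adjusted p = 0.858). Each of the other 8 was lost without at least 3 of the 9 arrays taken singly, with adjusted p-values up to 0.149.

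The poly-A spike probe sets averaged log2 9.22 in si-Med23 and 7.61 in si-Ctrl, and the 18 hybridization control probe sets averaged 12.33 in si-Med23 and 11.83 in si-Ctrl. Every si-Med23 array lay above every si-Ctrl array in both measures. Their part in the mucin results was not tested beyond the scalings given.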

How the results depend on the processing

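Mucin genes called in si-Med23 against si-Ctrl numbered 2, but 0 without _x_at and _s_at probe sets and 1 with a gene's probe sets averaged. These settings test fewer members or other probe sets. With poly-A spike scaling 3 mucin genes were called, 0 higher and 3 lower. All genes then gave 18 higher and 11880 lower of 12616. No mucin gene was bright enough to be tested under the stricter filter, so its count of 0 in each comparison is not a lost call. Leaving out single arrays gave 2 throughout. In si-Elk1 against si-Ctrl 0 became 2 with signals raised to the filter level, and single arrays gave 0 to 1. In si-Med23 against si-Elk1 3 became 0 with averaged probe sets, 1 without _x_at and _s_at probe sets, with 6 arrays in the fit or at the 0.01 threshold, and 1 to 3 without single arrays.

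The sign turned without _x_at and _s_at probe sets for MUC5AC in si-Med23 against si-Ctrl (0.092) and SMAD4 in si-Med23 against si-Elk1 (0.066), and with raised signals for MUC5B in si-Med23 against si-Ctrl (0.16). Poly-A spike scaling turned, in si-Med23 against si-Ctrl, MUC13 (-1.08), ST3GAL1 (-0.57), GCNT3 (-0.98), ST6GALNAC4 (-0.94), SLPI (-0.47), GATA6 (-0.56), CTNNB1 (-0.54), JUP (-0.56) and CDH1 (-0.42). It turned JUP in si-Elk1 against si-Ctrl (-0.069). In si-Med23 against si-Elk1 it turned MUC13 (-0.12), ST3GAL1 (-0.37), GCNT3 (-0.20), KLF4 (-0.33), CTNNB1 (-0.070) and JUP (-0.49). Without single arrays MUC5B in si-Med23 against si-Ctrl ranged from -1.51 to 0.37 and MUC13 in si-Elk1 against si-Ctrl from -0.60 to 0.13. The other causes were not tested.

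Replicate numbers did not pair the samples (correlation of same-numbered deviations -0.176 to 0.0462, and 0 of 9 arrays best matched their own number). With the replicate block, mucin calls against si-Ctrl were 2 for si-Med23 and 0 for si-Elk1. Between the knockdowns they were 2, since MUC1 lost its call (adjusted p = 0.0784).

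Calls over all genes in si-Elk1 against si-Ctrl were 537, 119 with no filter, 162 with the replicate block, 1594 with array weights, 4993 with poly-A spike scaling and 109 to 498 without single arrays. In si-Med23 against si-Ctrl they were 5023, with 11898 under poly-A spike scaling, 2307 at the 0.01 threshold and 3174 without si-Ctrl replicate 3. In si-Med23 against si-Elk1 they were 2739, with 979 under no filter, 10252 under poly-A spike scaling and 769 to 4496 without single arrays, the highest without si-Elk1 oligo C. Higher and lower calls in si-Med23 against si-Ctrl numbered 2561 and 2462, against 4764 and 1676 once arrays were median-centred. Hybridization control scaling gave 409 and 5205, and poly-A spike scaling gave 18 and 11880. Signals near the filter level limit MUC5AC, MUC5B and ST6GALNAC6.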
